A study of Sus scrofa with 6 samples.

Results

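The genes described here code for the machinery of membrane traffic: small GTPases of the RAB, ARF and ARL families, SEC and COP coat and translocation proteins, VPS sorting factors, sorting nexins (SNX) and the SNARE proteins named VAMP and STX. They were chosen by name alone, from probe sets to which the platform annotation gives a single symbol beginning with RAB, ARL, SEC, VPS, SNX, VAMP or STX and a digit, with COPA, COPB, COPE, COPG or COPZ, or reading ARF1 to ARF6. The rule found 114 genes on 172 probe sets, out of 6765 genes with 1 symbol on the array, and each gene was read from its probe set with the highest mean signal over the 6 arrays. By their textbook place in the cell, 42 were put in a secretory class, 50 in an endosomal class and 22 in neither. Some, such as ARF4, RAB8A, RAB10, RAB14, VAMP7 and STX6, act on both routes and were counted in 1 class, and of these only STX6 was ever left out of its class in an alternative. RNA came from follicles of the ovaries of gilts (young female pigs) before puberty, isolated by morphology and diameter at 3 successive stages that the titles call primordial, middle and last. Each stage had 2 single-channel porcine Affymetrix arrays, titled as biological replicates. The 6 arrays are called P1, P2, M1, M2, L1 and L2 here after stage and replicate number. Breed, age, diameters and the number of follicles or animals per array are not stated in the sources used. Nothing says that replicates came from separate animals, so p-values reflect no more than the spread among these arrays, which may be technical.

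Proteins bound for the cell surface or for secretion enter the endoplasmic reticulum (ER) through the SEC61 channel. The COPII coat carries them from there to the Golgi, the COPI coat returns escaped proteins and membrane to the ER, and exocytic RABs guide the last steps to the plasma membrane. In the opposite direction, membrane taken in from the surface passes through early endosomes, from which recycling RABs, retromer and sorting nexins return it, while ESCRT complexes and late endosomal RABs and tethers send it on to lysosomes. SNARE proteins drive the fusion at each step. In a growing follicle the oocyte secretes the glycoproteins of its coat and growth factors, and granulosa and theca cells secrete peptide hormones and take up lipoproteins and internalise hormone receptors.

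A description attached to all 6 samples calls each of them primordial, against the titles, from which the stage names were taken. Median signals over all probe sets were 119.3 to 125.4 array units for primordial, 165.0 to 169.9 for middle and 140.3 to 150.6 for last. Marker genes of the follicle's cells differed widely between the stages. The summed signal of 11 oocyte markers out of 16 looked for was 481.9 to 495.1 at the primordial, 20060 to 21820 at the middle and 887.9 to 907.1 at the last stage. On the arrays titled primordial, the oocyte markers PADI6 (3.2 and 3.3) and DPPA5 (4.9 and 6.3) were close to 0. On the same arrays the granulosa markers INHA (11118 and 16319) and CYP19A3 (8971 and 10896) were bright. The stage names follow the titles throughout, and whether those arrays hold primordial follicles was not tested. For 10 leukocyte markers of 12 the sums were 19170 to 22150, 1277 to 1710 and 1939 to 4847, with L2 the higher last array, although PTPRC, a defining leukocyte gene, stayed between 21.0 and 56.5 on every array. Summed over 10 granulosa markers of 10, the signal was 40670 to 53800 at the primordial stage, 13450 to 19500 at the middle stage and 59350 to 65470 at the last stage. AMH, one of them, went the other way, at 198.6 and 273.0, 969.5 and 1763.9, and 106.6 and 112.7. FSHR and INHBA had no lower mean at the middle than at the primordial stage. CYP19A1 and FOXL2 stayed at 52.2 or less on every array. For 6 stromal fibroblast markers of 8 the sums were 837.0 to 1003, 12670 to 19880 and 14940 to 18130. DCN alone read 15364 and 9867 on M1 and M2. From primordial to middle 4 of the 6 were called higher. COL3A1 went the other way, uncalled, from 351.7 and 128.0 to 149.0 and 83.8. These marker lists moved with the stages across all results that follow, and their part in them was not tested. In whole follicles, fewer cells of a type and less RNA per cell cannot be told apart.

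Differences are given as log2(signal + 16) of the later minus the earlier stage, ± its standard error in the fit (n = 2 arrays a stage), and a fold is 2 raised to that difference. A gene is called higher or lower where limma's adjusted p, taken over all 14399 probe sets tested, was under 0.05. The filter on dim probe sets left 106 of the 114 genes. RAB15, RAB19, RAB26, RAB3IL1, SNX11, SNX8, STX16 and VPS53 were below it, with highest signals between 15.5 (RAB15) and 135.3 (SNX8). In the fit without a filter SNX8 was lower in middle than in primordial follicles by a difference of -2.17 ± 0.43 (limma adjusted p = 0.00655), with signals of 121.9 and 135.3 against 7.4 and 28.0. Where a gene is said to have lost a call, the alternatives are those other than the replicate block. RAB5A, RAB27A, VPS35 and VPS4B, central members of these families, had no probe set under the rule and were not analysed here.

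From the primordial to the middle stage, 16 of the 106 genes tested (15.1%) were called higher and 24 (22.6%) lower, against 22.9% and 22.5% of 5432 genes at 1 probe set per gene. Over all 14399 probe sets, 47.4% were called in either direction. From the middle to the last stage 8 genes (7.55%) were called higher and 2 (1.89%) lower, against 8.8% and 7.23% of all genes and 17.2% of all probe sets. Between last and primordial follicles 13 (12.3%) were higher and 13 lower, against 17.2% and 15.8% of all genes and 33.2% of all probe sets. All of these shares lay below or near those of all genes, so the number of changes did not set the traffic genes apart. The 3 comparisons share arrays and are not independent. Without M1 the total of 40 calls from primordial to middle was 24, and that of 10 from middle to last was 2, with 6 without L1 or L2. From primordial to last the 26 calls became 15 without P1, 14 without P2 and 17 without L1 or L2. In limma's F-test over the 3 stages, 45 of 106 were called, against 48.6% of all genes. Of the 45, 21 had their highest level at the primordial stage, 16 at the middle stage and 8 at the last (46.7%, 35.6% and 17.8%, against 40.9%, 36.1% and 23.0% of the 2642 genes called by the F-test). Without M1 the F-test called 24.

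With all arrays as deposited, the secretory and endosomal classes had different balances of direction. Of 40 secretory genes tested, 4 were higher and 12 (30.0%) lower in middle than in primordial follicles, with a median difference of -0.14. Among 45 endosomal genes 9 were higher and 10 (22.2%) lower, with a median of 0.02. Of all 5432 genes 22.9% were higher and 22.5% lower, with a median of 0.06. From middle to last, 4 secretory genes were higher and 1 lower, with a median of 0.21 and 29 of 40 differences above 0. For the endosomal genes limma called 3 and 0 (6 and 3 at an unadjusted p under 0.05), the median was -0.06 and 20 of 45 differences were above 0. Over all genes 8.8% were higher and 7.23% lower, the median was 0.02 and 2832 of 5432 differences were above 0. Between last and primordial follicles the medians of both classes were within 0.05 of 0, at -0.02 for 4 secretory genes higher and 6 lower and 0.05 for 7 endosomal genes higher and 5 lower. In that comparison 17.2% of all genes were higher and 15.8% lower. The members are not replicates, so the difference between the classes was not tested. The endosomal median of the first step was 0.14 without M1, -0.16 without M2 and -0.12 with quantile normalization. The secretory one was -0.12, -0.19 and -0.18 in the same order, so without M2 the classes lay close together. The secretory median of last minus primordial was 0.08 without L2. Centring each array on its median put the median of all genes at -0.35 in the first step and 0.21 in the second. The secretory medians were then -0.55 and 0.40 and the endosomal ones -0.39 and 0.13. Centring shifts every gene of a comparison by the same amount, so it could not change the order of the classes. In calls, centring gave 7 members higher and 40 lower from primordial to middle, 14 and 1 from middle to last, and 6 and 19 from primordial to last. The share of calls over all genes that were higher went from 50.4%, 54.9% and 52.1% as deposited to 24.3%, 75.2% and 30.8% with centring.

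**Figure D1:**
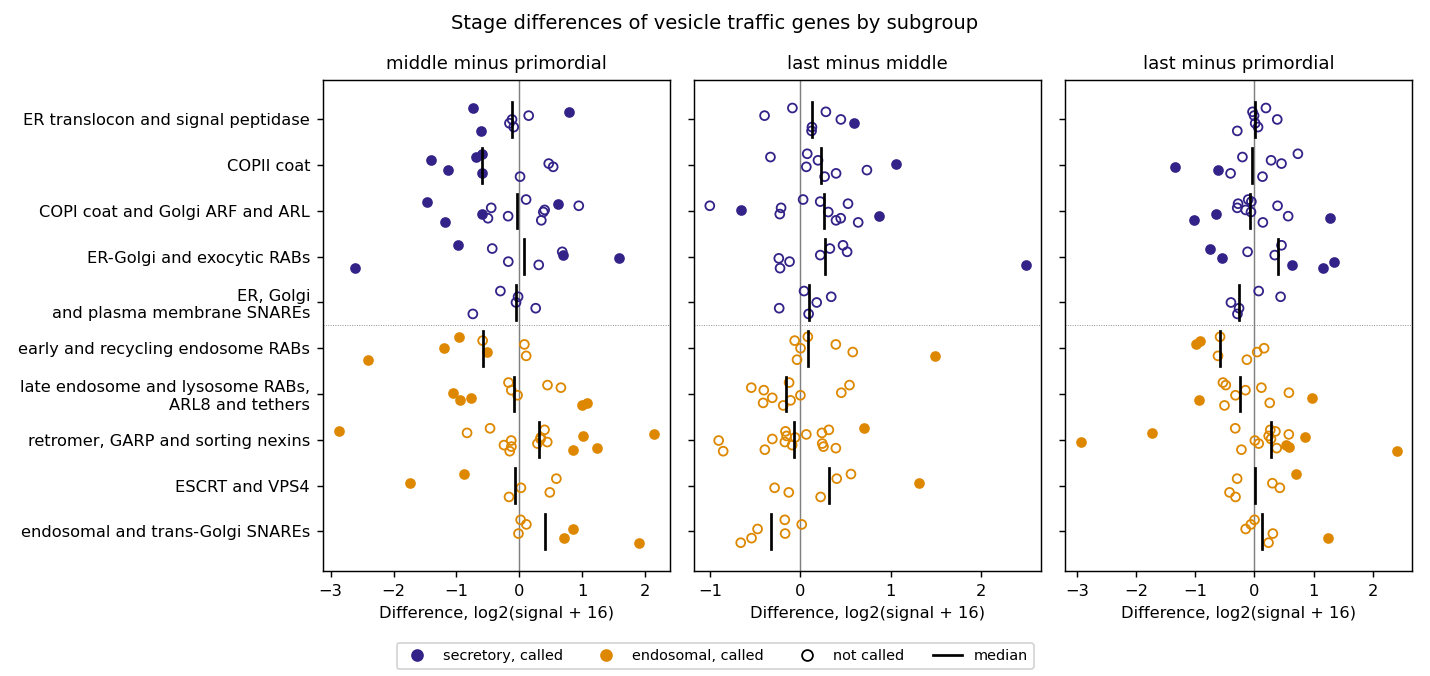
Difference of each of the 40 secretory and 45 endosomal genes tested, on the log2(signal + 16) scale, for the 3 stage comparisons; each point is 1 gene, filled where called by limma at an adjusted p under 0.05, and the bar is the subgroup's median. Among the subgroups, COPII coat genes and early and recycling endosome RABs had medians of -0.60 and -0.58 in the first panel, while endosomal and trans-Golgi SNAREs had 0.41.

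Of the 7 ER translocon and signal peptidase genes, 2 were lower and 1 higher in middle than in primordial follicles (22.5% and 22.9% of all genes). SEC61B, the beta subunit of the SEC61 channel, had signals of 5805 and 5229 (primordial), 3537 and 3704 (middle) and 5633 and 5353 (last). Its middle arrays were below all 4 others, and the primordial and last arrays overlapped. The difference was -0.60 ± 0.15 (limma adjusted p = 0.0091) from primordial to middle and 0.60 ± 0.15 (limma adjusted p = 0.0249) from middle to last. The other channel subunits had smaller differences, -0.16 for SEC61A1 and -0.12 for SEC61G, neither of them called. SEC62, which works with SEC63 to bring proteins into the channel after their synthesis, went the other way, at 1522 and 1509 (primordial), 3006 and 2284 (middle) and 1820.1 and 2169 (last), and no middle array overlapped the primordial ones. It rose by 0.78 ± 0.20 (limma adjusted p = 0.0101), while its partner SEC63, at signals of 2401, 2629.8, 2887, 2696, 2666 and 2582 on P1 to L2, had an uncalled 0.15. A second probe set of SEC63, with signals of 604.6 and 812.3 against 2073 and 1087, was called higher at 1.08. SEC11C, a catalytic subunit of signal peptidase, fell from 2626 and 1689.9 to 1236 and 1278 (a difference of -0.74 ± 0.24 (limma adjusted p = 0.0298)), and the other one, SEC11A, had -0.09. SEC61B lost its primordial-to-middle call without P1 or M1 or with quantile normalization (limma adjusted p 0.0529 to 0.0743). SEC61B lost its middle-to-last call without M1, M2, L1 or L2, with quantile normalization or without the intensity trend (limma adjusted p 0.0506 to 0.138). SEC62 lost its primordial-to-middle call without P2 or M1 or with centred arrays (limma adjusted p 0.0537 to 0.158). SEC11C lost its primordial-to-middle call without P1, M1 or M2 or without the intensity trend (limma adjusted p 0.0561 to 0.242).

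The COPII coat buds vesicles from the ER, and 5 of its 8 genes tested were lower in middle than in primordial follicles by limma with none higher (22.5% and 22.9% of all genes). At an unadjusted p under 0.05 the counts were 5 and 0. SEC23B, of the inner coat, had signals of 2054 and 1954 (primordial), 662 and 848 (middle) and 795 and 776 (last). Both later stages lay far below the primordial arrays and overlapped each other. The difference was -1.40 ± 0.20 (limma adjusted p = 0.000533) for middle and -1.33 ± 0.20 (limma adjusted p = 0.0014) for last minus primordial, folds of 2.64 and 2.52. SEC23A, its paralog, showed nothing of the kind, with signals of 2249, 2160.5, 2568, 1926, 3031 and 2376 on P1 to L2 and a middle minus primordial difference of 0.01, although the difference between the paralogs was not tested. SEC24D, one of the subunits that select cargo, stood at 443 and 511 (primordial), 208 and 206 (middle) and 410.5 and 309 (last). It was lowest at the middle stage, with -1.14 ± 0.24 (limma adjusted p = 0.00371), and the last arrays lay between. The related SEC24C fell from 1937 and 1785 to 1125 and 1329, by a difference of -0.60 ± 0.18 (limma adjusted p = 0.0241).

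The outer COPII coat is built of SEC13 and SEC31. SEC13 had 521 and 498 (primordial), 288 and 380.5 (middle) and 709 and 703 (last). Its middle arrays were the lowest and its last arrays the highest of the 6. The call from primordial to middle was marginal, at -0.60 ± 0.22 (limma adjusted p = 0.0478), and that from middle to last was 1.06 ± 0.22 (limma adjusted p = 0.011), above that of any other COPI or COPII gene. For SEC31A the signals were 4642 and 4624 (primordial), 2839 and 2904 (middle) and 2996 and 3063 (last), and both later stages lay below the primordial one, by -0.69 ± 0.15 (limma adjusted p = 0.00535) and -0.61. Its 2 dimmer probe sets had uncalled differences of -0.17 and 0.15 in the first step. SEC31B (0.54) and SEC23IP (0.47), which binds SEC23, were above 0 without a call. SEC24C lost its primordial-to-middle call without P1, P2 or M1 (limma adjusted p 0.0762 to 0.13). SEC13 lost its primordial-to-middle call without P1, P2, M1, L1 or L2, without a filter, without the intensity trend or with 4 arrays alone (limma adjusted p 0.051 to 0.233). SEC31A lost its primordial-to-middle call with the mean of its probe sets (limma adjusted p 0.5). SEC13 lost its middle-to-last call without M1 (limma adjusted p 0.0977). SEC31A lost its primordial-to-last call without P1 or P2 or with the mean of its probe sets (limma adjusted p 0.0796 to 0.336). The median of the COPII genes from primordial to middle was -0.60, and it was -0.52 with quantile normalization and -1.01 with the arrays centred on their medians.

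ARF GTPases recruit coats and enzymes to membranes, and 4 of the 5 on the array were lower in middle than in primordial follicles (22.5% of all genes), at a median of -1.18 (-0.82 with quantile normalization and -1.59 with centred arrays). ARF6, which acts at the plasma membrane and on recycling endosomes and so belongs to the endosomal class, is given with them. Its signals were 5511 and 5207 (primordial), 934 and 1065 (middle) and 2822 and 2842 (last). The 3 stages did not overlap, and each pair differed: -2.41 ± 0.17 (limma adjusted p = 1.43e-05), a 5.3-fold drop, then 1.49 ± 0.17 (limma adjusted p = 0.000485), and -0.92 ± 0.17 (limma adjusted p = 0.00352) for last against primordial. ARF2, a Golgi ARF closely related to ARF1, had 1804 and 1764 (primordial), 611 and 656 (middle) and 955 and 790.4 (last). It fell by 1.47 ± 0.20 to the middle stage (limma adjusted p = 0.000354) and the last arrays stayed below the primordial ones at -1.02 ± 0.20 (limma adjusted p = 0.00429). A dimmer probe set of ARF2 had uncalled differences of -0.65 and -0.29 in these comparisons. ARF4, another Golgi ARF, had 11695 and 13806 (primordial), 4892 and 6431 (middle) and 7911 and 8291 (last), with differences of -1.18 ± 0.17 (limma adjusted p = 0.00054) and -0.65 ± 0.17 (limma adjusted p = 0.0172) against the primordial stage. For ARF1, which loads the COPI coat, the values were 8715 and 8818 (primordial), 5098 and 6552 (middle) and 6896 and 7450.5 (last), and the middle arrays were the lowest, at -0.60 ± 0.16 (limma adjusted p = 0.0128). ARF5 alone lay above 0, uncalled, with signals of 356, 367, 394, 549, 489 and 607 on P1 to L2 and 0.35. From middle to last the differences of all 5 were above 0 on each scale of the arrays, and ARF6 was the one called; without M1 that of ARF5 was -0.01. Calls of ARF2 and ARF6 held under every alternative. ARF1 lost its primordial-to-middle call without P1, P2 or M1, with quantile normalization or without the intensity trend (limma adjusted p 0.0534 to 0.14). ARF4 lost its primordial-to-last call without P2 or L1 or without the intensity trend (limma adjusted p 0.0603 to 0.121).

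Among the 7 COPI coat genes limma called 1 higher and none lower from primordial to middle (22.9% and 22.5% of all genes), against none higher and 2 lower with centred arrays, and an unadjusted p under 0.05 gave 2 and 0. COPA, the alpha subunit, had 2469.8 and 2418 (primordial), 3660.3 and 3869.7 (middle) and 3439 and 2999 (last). It was higher at the middle stage by 0.62 ± 0.16 (limma adjusted p = 0.012). COPB1, a beta subunit, was highest at the middle stage with 3645 and 3299 (primordial), 4815 and 4256 (middle) and 2890.1 and 2834 (last). Its one call was the fall to the last stage, at -0.66 ± 0.16 (limma adjusted p = 0.0223), while its second, dimmer probe set had an uncalled -0.15 there. COPZ2, a zeta subunit, had 554 and 782 (primordial), 856 and 898 (middle) and 1571 and 1659 (last). The last arrays stood above all others, by 0.87 ± 0.22 (limma adjusted p = 0.0248) over the middle and 1.27 ± 0.22 (limma adjusted p = 0.00253) over the primordial stage. Its paralog COPZ1, at signals of 1698, 1728, 1058, 1484, 1814 and 1506 on P1 to L2, had -0.05 for last minus primordial, and the gamma subunits COPG1 (-0.50) and COPG2 (0.11) had no call in any comparison. Nor had ARL1, a GTPase of the trans-Golgi, with -0.18 from primordial to middle. COPB2 was dim, at signals of 40.1, 129, 141, 176, 53.9 and 91.6 on P1 to L2, and not called. COPA lost its primordial-to-middle call without P1, P2 or M2 or with centred arrays (limma adjusted p 0.0561 to 0.376). COPB1 lost its middle-to-last call without M1, M2, L1 or L2, with centred arrays, without the intensity trend or with the mean of its probe sets (limma adjusted p 0.0532 to 0.16). COPZ2 lost its middle-to-last call without M1, M2, L1 or L2 (limma adjusted p 0.0603 to 0.144).

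**Figure D2:**
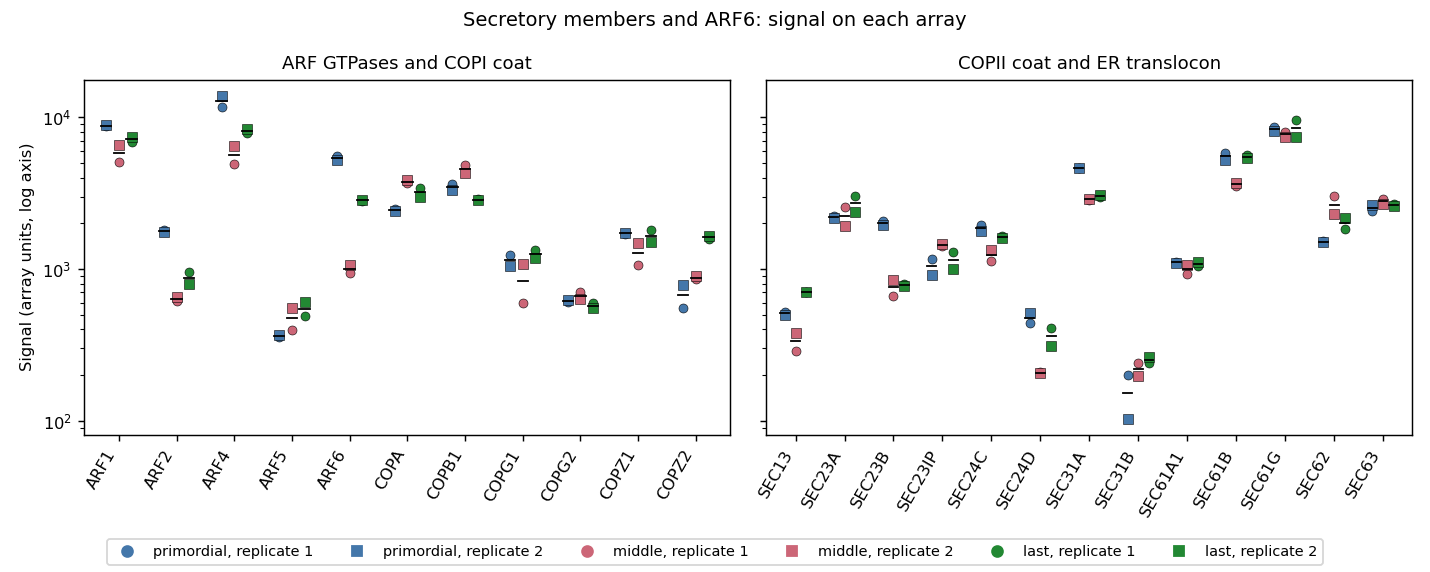
Signal in array units (log axis) on each of the 6 arrays for ARF GTPases and COPI subunits (left) and for COPII and translocon genes (right); circles are replicate 1 and squares replicate 2, coloured by stage, and dashes are stage means. ARF2, ARF4 and ARF6 were highest at the primordial stage and lowest at the middle stage, COPZ2 was highest on the last arrays, and SEC13 was lowest on the middle arrays; levels of different genes cannot be compared.

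RABs of the ER-to-Golgi route differed among themselves. RAB1A, needed for transport from the ER to the Golgi, had 7559 and 7184 (primordial), 3650.2 and 3873 (middle) and 4244 and 4531 (last). Both later stages were far below the primordial arrays, with -0.97 ± 0.15 (limma adjusted p = 0.000725) for middle and -0.75 ± 0.15 (limma adjusted p = 0.00493) for last minus primordial. Its second probe set, at 2842 and 1935 on the primordial arrays, had uncalled values of -0.12 and -0.14. RAB2A, which acts between Golgi and ER, went the other way, from 3065 and 2582 to 4815 and 4339, a rise of 0.70 ± 0.16 (limma adjusted p = 0.00727). Its last arrays, at 3912 and 3831, lay between the other stages.

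Exocytic RABs held the largest secretory differences. RAB27B, which docks secretory granules at the plasma membrane, had 408 and 311 (primordial), 49.5 and 40.5 (middle) and 273 and 392 (last). The middle arrays were many times dimmer than all others, and the primordial and last arrays overlapped. Both middle arrays were under 91.3, so RAB27B passed the filter on dim probe sets through its primordial and last arrays. The difference was -2.61 ± 0.29 (limma adjusted p = 0.000138) from primordial to middle and 2.50 ± 0.29 (limma adjusted p = 0.000595) from middle to last, folds of 6.11 and 5.65; with pseudocounts of 1 and 64 the latter difference ran from 2.84 to 1.85. RAB3A, a GTPase of regulated secretion, was dim at 19.1 and 82.2 (primordial), 154 and 164 (middle) and 138 and 130.2 (last). The primordial arrays lay far apart and both were under 91.3, so RAB3A passed the filter on dim probe sets through its middle and last arrays. The difference was 1.58 ± 0.46 (limma adjusted p = 0.0202) for middle and 1.35 ± 0.46 (limma adjusted p = 0.0498) for last minus primordial. Its paralog RAB3D, with signals of 277, 243, 255, 204, 326 and 342 on P1 to L2, had no call. RAB8A, which carries vesicles from the Golgi to the plasma membrane, had 111 and 69.4 (primordial), 148 and 155 (middle) and 199.5 and 235 (last) and was called higher at the last than the primordial stage, at 1.16 ± 0.30 (limma adjusted p = 0.0181). RAB13, of epithelial junction traffic, was higher by 0.64 ± 0.18 (limma adjusted p = 0.0264) in the same comparison, and RAB10, which brings transporters to the surface, was lower by -0.55 ± 0.16 (limma adjusted p = 0.0271). Of the other probe sets of RAB10, one of 3 was called lower there, at -0.99, and also from primordial to middle, at -1.28, where the one used had -0.43. RAB2A lost its primordial-to-middle call without P2 or M1, with centred arrays or with the mean of its probe sets (limma adjusted p 0.0549 to 0.216). RAB3A lost its primordial-to-middle call without P1, M1 or M2, with quantile normalization or with centred arrays (limma adjusted p 0.0573 to 0.112). RAB1A lost its primordial-to-last call with the mean of its probe sets (limma adjusted p 0.0684). RAB3A lost its primordial-to-last call without P1, M1, M2, L1 or L2, with a pseudocount of 1, without a filter, with quantile normalization, with centred arrays, without the intensity trend or with 4 arrays alone (limma adjusted p 0.0505 to 0.276). RAB8A lost its primordial-to-last call without P2 or L2, with quantile normalization or with the mean of its probe sets (limma adjusted p 0.0502 to 0.113). RAB13 lost its primordial-to-last call without P1, P2, L1 or L2, with centred arrays or without the intensity trend (limma adjusted p 0.0557 to 0.142). RAB10 lost its primordial-to-last call without P1, P2, L1 or L2, with quantile normalization, without the intensity trend or with the mean of its probe sets (limma adjusted p 0.0543 to 0.306).

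None of the 5 SNAREs of the ER, Golgi and plasma membrane was called in a pairwise comparison by limma, and at an unadjusted p under 0.05 there was 1, lower from primordial to middle. The lowest adjusted p of the F-test was for SEC22C, of the ER, with 145 and 166 (primordial), 80.9 and 93.1 (middle) and 129.9 and 100.5 (last). Its differences were -0.74 and 0.34. STX18, an ER syntaxin, had signals of 238, 252, 264, 334, 333 and 345 on P1 to L2. The syntaxins STX5 of the Golgi and STX4 of the plasma membrane had -0.30 and -0.02 from primordial to middle, and VAMP2, of secretory vesicles, had -0.05.

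In the endosomal class, 4 of the 7 early and recycling endosome GTPases were lower in middle than in primordial follicles and none higher by limma (4 and 0 at an unadjusted p under 0.05; 22.5% and 22.9% of all genes), at a median of -0.58 (-0.48 with quantile normalization and -0.995 with centred arrays). ARF6, given above, was one. RAB14, which works between the Golgi and early endosomes, had 502 and 599 (primordial), 259 and 204 (middle) and 333 and 373 (last). Its middle arrays were the lowest and did not overlap with either other stage, and the difference was -1.20 ± 0.23 (limma adjusted p = 0.00271). RAB22A, of early endosome sorting, had 1329.7 and 1459 (primordial), 672 and 756 (middle) and 551 and 873 (last). Both later stages lay below the primordial one, by -0.95 ± 0.24 (limma adjusted p = 0.0108) and -0.99 ± 0.24 (limma adjusted p = 0.0138). RAB11A, the main GTPase of recycling endosomes, had 3333 and 3416 (primordial), 2164 and 2548 (middle) and 3110.5 and 3068 (last), with a difference of -0.52 ± 0.17 (limma adjusted p = 0.0283). Its second probe set, at 1474 and 1223 on the primordial and 1639 and 1539 on the middle arrays, had an uncalled difference of 0.24. RAB11B, at signals of 2762, 2308, 1279, 2209, 1489 and 1904 on P1 to L2, had an uncalled -0.58. RAB4B (0.11) and RAB35 (0.08), both of fast recycling, were close to 0. RAB22A lost its primordial-to-middle call without P2 or M1 (limma adjusted p 0.0666 to 0.0742). RAB11A lost its primordial-to-middle call without P1, P2 or M1, with quantile normalization, without the intensity trend or with the mean of its probe sets (limma adjusted p 0.0671 to 0.513). RAB22A lost its primordial-to-last call without P1, P2 or L1 (limma adjusted p 0.0521 to 0.0817).

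Late endosomal genes went in both directions. RAB7A, which controls the passage from late endosome to lysosome, had 3328 and 2813 (primordial), 1384 and 1560.5 (middle) and 2165 and 2139 (last). The 3 stages did not overlap, and the middle one was lowest, with -1.05 ± 0.18 (limma adjusted p = 0.00133) against the primordial stage. RAB9A, which returns receptors from late endosomes to the Golgi, had 1055 and 909.8 (primordial), 525 and 483 (middle) and 417 and 609 (last), lower at both later stages by -0.94 ± 0.24 (limma adjusted p = 0.00986) and -0.94 ± 0.24 (limma adjusted p = 0.0151). RAB32, of lysosome-related organelles, fell from 778 and 614 to 378 and 418, by a difference of -0.77 ± 0.22 (limma adjusted p = 0.0168). VPS45, a regulator of endosomal SNAREs, had 284 and 276 (primordial), 635 and 583 (middle) and 542 and 585 (last). Its primordial arrays were below all 4 others, by 1.08 ± 0.20 (limma adjusted p = 0.0024) to the middle and 0.97 ± 0.20 (limma adjusted p = 0.00685) to the last stage. VPS33A, the SNARE-binding subunit of the tethering complexes CORVET and HOPS, had 253 and 185 (primordial), 426 and 470.4 (middle) and 357 and 309 (last) and was called higher at the middle stage, at 0.996 ± 0.24 (limma adjusted p = 0.00818). The other tether subunits VPS11, VPS16, VPS18, VPS39 and VPS41 had no call in any comparison, with middle minus primordial differences of -0.03, 0.45, 0.66, -0.13 and -0.17. RAB9A lost its primordial-to-middle call without P1 or M2 (limma adjusted p 0.0566 to 0.0677). RAB32 lost its primordial-to-middle call without P1 or M1 (limma adjusted p 0.0879 to 0.123). VPS33A lost its primordial-to-middle call without P2 or M2 or with centred arrays (limma adjusted p 0.0523 to 0.0888). RAB9A lost its primordial-to-last call without P1 or L1 (limma adjusted p 0.0832 to 0.0924).

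Among the 16 retromer, GARP and sorting nexin genes tested, 4 were higher and 1 lower in middle than in primordial follicles, against 22.9% and 22.5% of all genes, with a median of 0.31 that turned to -0.10 with centred arrays. Retromer returns receptors from endosomes. Its subunit VPS29 had 2358 and 2290 (primordial), 4472 and 3943 (middle) and 3321 and 3446 (last). The stages did not overlap, and it was higher by 0.85 ± 0.16 (limma adjusted p = 0.00232) at the middle and 0.54 ± 0.16 (limma adjusted p = 0.0296) at the last than at the primordial stage. VPS26A, another subunit, had 1545 and 933 (primordial), 3616 and 2238 (middle) and 1476 and 1659 (last), with wide gaps between replicates, and was called higher at the middle stage, at 1.23 ± 0.29 (limma adjusted p = 0.00696). Its second tested probe set, at 606.7 and 635.2 against 635.0 and 598.3, showed -0.01. The paralog VPS26B had -0.13, with signals of 659, 702, 606, 637, 627 and 539.6 on P1 to L2, and VPS52, of the GARP complex that tethers endosomal vesicles at the Golgi, an uncalled 0.45.

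Sorting nexins, which bind endosomal membrane lipids, held both the lowest and the highest difference of the endosomal class in each comparison with the primordial stage. SNX10, needed by osteoclasts, had 1600 and 1462 (primordial), 197 and 193 (middle) and 106 and 321 (last). The primordial arrays stood 7.33-fold above the middle ones, and the last arrays lay far apart. The difference was -2.87 ± 0.40 (limma adjusted p = 0.000456) for middle and -2.93 ± 0.40 (limma adjusted p = 0.000842) for last minus primordial. L2 was also the last array with the higher leukocyte marker sum, 4847 against 1939, and the part of leukocyte RNA in the level of SNX10 was not tested. SNX21 had 20.8 and 10.4 (primordial), 97.2 and 153 (middle) and 171 and 129.9 (last), so it passed the filter on dim probe sets through its middle and last arrays. It rose by 2.15 ± 0.40 (limma adjusted p = 0.00225) and 2.40 ± 0.40 (limma adjusted p = 0.00233), and these depend on the pseudocount: the former ran from 1.24 to 2.96 with 64 and 1. SNX14, an ER protein found at contacts with lipid droplets, had 535 and 652 (primordial), 1281 and 1129 (middle) and 1081 and 1080.3 (last), higher by 1.01 ± 0.20 (limma adjusted p = 0.00308) and 0.85 ± 0.20 (limma adjusted p = 0.0111). A dimmer probe set of SNX14 was also called higher at the middle stage, at 1.18, but lower from middle to last, at -1.69. SNX22 was lowest at the middle stage, with 8257 and 9492 (primordial), 5490.1 and 7489 (middle) and 10659.7 and 10287 (last), and its call was the rise to the last stage, at 0.71 ± 0.17 (limma adjusted p = 0.0226). SNX30, of a recycling complex, had 176 and 219.6 (primordial), 97.7 and 110.1 (middle) and 83.9 and 24.9 (last) and was lower at the last than at the primordial stage, at -1.74 ± 0.44 (limma adjusted p = 0.0148). Both last arrays were under 91.3, so SNX30 passed the filter on dim probe sets through its primordial and middle arrays. SNX1, which forms tubules with retromer, rose from 1154 and 1000 to 1687 and 1547 between those stages (0.58 ± 0.19 (limma adjusted p = 0.0441)). The remaining SNX3, SNX5, SNX6, SNX12, SNX17 and SNX24 had no call in any comparison from the probe set used, although the dimmest of 4 probe sets of SNX6 was called higher at the middle stage, at 1.60 (limma adjusted p = 0.000982).

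Of these calls, SNX10, SNX21 and SNX14 from primordial to middle held under every alternative run for them; SNX21 is too dim for the 60% filter. VPS26A lost its primordial-to-middle call without P2 or M1 (limma adjusted p 0.0599 to 0.0748). VPS29 lost its primordial-to-middle call with centred arrays (limma adjusted p 0.0581). SNX22 lost its middle-to-last call without M1, L1 or L2, without a filter, with quantile normalization or without the intensity trend (limma adjusted p 0.0514 to 0.175). VPS29 lost its primordial-to-last call without P1, P2, L1 or L2, with centred arrays or without the intensity trend (limma adjusted p 0.0696 to 0.186). SNX14 lost its primordial-to-last call without P1 or with the mean of its probe sets (limma adjusted p 0.085 to 0.589). SNX30 lost its primordial-to-last call without P1, P2 or L2 (limma adjusted p 0.0505 to 0.0897). SNX1 lost its primordial-to-last call without P1, P2, M1, M2, L1 or L2, without a filter, with quantile normalization, with centred arrays, without the intensity trend or with 4 arrays alone (limma adjusted p 0.052 to 0.238).

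ESCRT complexes sort ubiquitinated receptors into vesicles inside late endosomes. VPS36, of ESCRT-II, had 521 and 550.1 (primordial), 157 and 143 (middle) and 469 and 334 (last). The middle arrays were the lowest by far and no stage overlapped with another, with -1.73 ± 0.24 (limma adjusted p = 0.000468) to the middle stage and 1.31 ± 0.24 (limma adjusted p = 0.00629) from there to the last. VPS25, another ESCRT-II subunit, did not follow it. With 786 and 896 (primordial), 1066 and 1309.7 (middle) and 1239.9 and 1545 (last), it was called higher at the last than the primordial stage (0.71 ± 0.21 (limma adjusted p = 0.0291)). VPS37B, of ESCRT-I, had 925 and 670 (primordial), 342 and 516 (middle) and 489 and 805 (last), with uneven replicates, and a difference of -0.88 ± 0.30 (limma adjusted p = 0.039). VPS28 (0.03) and VPS37D (0.59) of ESCRT-I and VPS4A (-0.16), the enzyme that takes the complexes apart, had no call in any comparison. VPS37B lost its primordial-to-middle call without P1, P2 or M1, without a filter or without the intensity trend (limma adjusted p 0.0509 to 0.245). VPS36 lost its middle-to-last call without M1 (limma adjusted p 0.051). VPS25 lost its primordial-to-last call without P1, P2 or L2 or with centred arrays (limma adjusted p 0.0788 to 0.151).

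Endosomal and trans-Golgi SNAREs had 3 genes called higher and none lower of 6 by limma from primordial to middle (3 and 0 at an unadjusted p under 0.05; 22.9% and 22.5% of all genes), at a median of 0.41 that was 0.49 with quantile normalization and 2.86e-05 with centred arrays. VAMP7, which fuses late endosomes with lysosomes and the plasma membrane, had 234 and 221 (primordial), 934 and 851 (middle) and 524 and 594 (last). The stages did not overlap, and the middle one was highest. Its level rose 3.73-fold, a difference of 1.90 ± 0.21 (limma adjusted p = 0.000124), and the last stage remained 1.24 ± 0.21 (limma adjusted p = 0.00229) above the primordial one. STX6, of the trans-Golgi, had 971 and 671 (primordial), 1444 and 1501 (middle) and 867 and 1169 (last) and rose by 0.85 ± 0.24 (limma adjusted p = 0.0165). STX8, of late endosomes, went from 1078 and 1592 to 2146 and 2171, by 0.71 ± 0.22 (limma adjusted p = 0.0226). VAMP3, of recycling endosomes (0.02), VAMP8, of late endosomes and granules (0.11), and STX10, of the trans-Golgi (-0.01), had no call in any comparison. All calls of VAMP7 held under every alternative. STX6 lost its primordial-to-middle call without P2, M1 or M2 or with centred arrays (limma adjusted p 0.072 to 0.174). STX8 lost its primordial-to-middle call without P1, M1 or M2 or with centred arrays (limma adjusted p 0.0875 to 0.293).

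**Figure D3:**
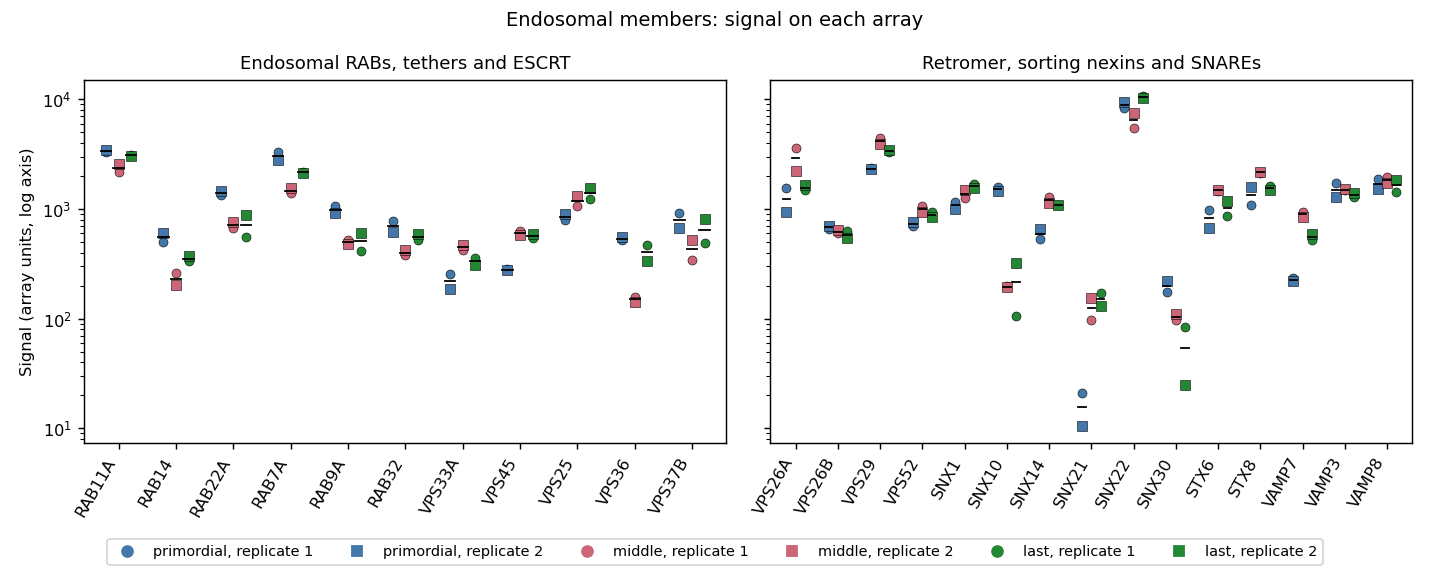
Signal in array units (log axis) on each of the 6 arrays for endosomal RABs, tethers and ESCRT genes (left) and for retromer, sorting nexins and SNAREs (right); circles are replicate 1 and squares replicate 2, coloured by stage, and dashes are stage means. RAB7A, RAB14 and VPS36 were lowest on the middle arrays, VAMP7 and VPS45 were lowest on the primordial arrays, and the last arrays of SNX10 stood at 105.8 and 321; levels of different genes cannot be compared.

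Members in neither class included the gene with the largest difference of all 106. STX11, a syntaxin known from granule release in leukocytes, had 3204 and 4113 (primordial), 404 and 384 (middle) and 454 and 624 (last). Both later stages lay far below the primordial arrays. The difference was -3.15 ± 0.23 (limma adjusted p = 1.75e-05) for middle, an 8.89-fold drop, and -2.73 ± 0.23 (limma adjusted p = 8.07e-05) for last minus primordial. The leukocyte marker sums given above moved the same way between the stages, and their part in this difference was not tested. SEC14L1, which resembles lipid carriers, had 3709 and 3740 (primordial), 849 and 978 (middle) and 1746 and 1324 (last). It was lowest at the middle stage, with -2.01 ± 0.20 (limma adjusted p = 7.51e-05), then 0.73 ± 0.20 (limma adjusted p = 0.0348), and -1.28 ± 0.20 (limma adjusted p = 0.00164) for last minus primordial. VPS13D, a bridge that moves lipids between organelles, had 135 and 208 (primordial), 515 and 481 (middle) and 179 and 214 (last). The middle arrays were above all others, by 1.48 ± 0.27 (limma adjusted p = 0.00182) over the primordial stage, and the fall to the last stage was -1.28 ± 0.27 (limma adjusted p = 0.0114). The summed signals of the oocyte and of the epithelial markers were highest on the same arrays, as was the granulosa marker AMH. The part of these cell types in the pattern of VPS13D was not tested.

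ARL3, a GTPase of cilia, had 1574 and 1642 (primordial), 3149.9 and 3056 (middle) and 2849 and 2347 (last), higher by 0.94 ± 0.18 (limma adjusted p = 0.00217) and 0.68 ± 0.18 (limma adjusted p = 0.0167) than at the primordial stage. RAB3GAP1, part of a regulator of RAB3 and RAB18, was higher at the middle stage, with 1041 and 960.4 against 639 and 659 (0.61 ± 0.20 (limma adjusted p = 0.0305)), and its partner RAB3GAP2 had an uncalled 0.55, against -0.56 on a dimmer probe set that was called lower (limma adjusted p = 0.0347). RAB28 was called at the last stage, at 0.66 ± 0.22 (limma adjusted p = 0.044). The other 15 tested, among them RAB18, RAB23, RAB24, ARL2, VPS13C and VPS72, had no call in a pairwise comparison from the probe set used. Dimmer probe sets were called lower for VPS72 from middle to last, at -0.96 (limma adjusted p = 0.0377), where the one used had 0.56, and for ARL6IP5 from primordial to middle, at -0.74, where the one used had -0.36. RAB3GAP1 lost its primordial-to-middle call without P1, P2, M1 or M2, with quantile normalization or with centred arrays (limma adjusted p 0.0679 to 0.461). SEC14L1 lost its middle-to-last call without P1, P2, M1, M2 or L1, without the intensity trend or with 4 arrays alone (limma adjusted p 0.0621 to 0.195). VPS13D lost its middle-to-last call without M1 or M2 (limma adjusted p 0.0599 to 0.106). ARL3 lost its primordial-to-last call without P1, P2 or L1 or with centred arrays (limma adjusted p 0.0704 to 0.101). RAB28 lost its primordial-to-last call without P1, P2, L1 or L2, without a filter, with quantile normalization, with centred arrays, without the intensity trend or with the mean of its probe sets (limma adjusted p 0.0605 to 0.185).

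**Figure D4:**
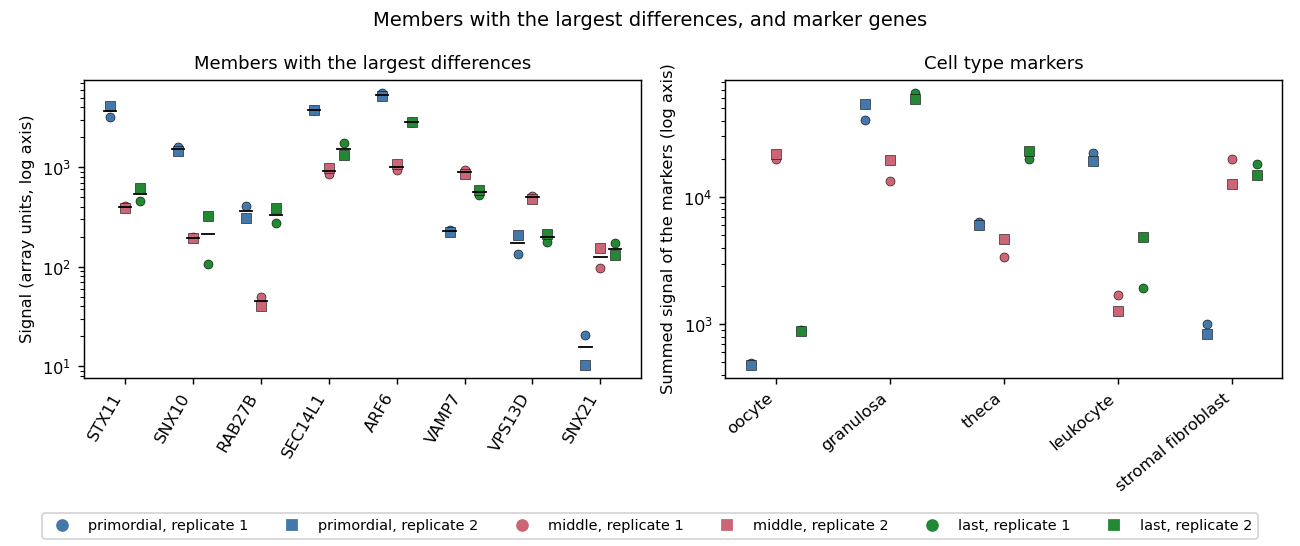
Left, signal in array units (log axis) on each of the 6 arrays for 8 of the members with large differences; right, summed signal of the markers of 5 cell types on the same arrays; circles are replicate 1, squares replicate 2, colours stages and dashes stage means. STX11 and SNX10 were brightest on the primordial arrays, where the leukocyte sum was 19170 to 22150, and VPS13D was brightest on the middle arrays, where the oocyte sum was 20060 to 21820. The epithelial sum, not drawn, was also highest on the middle arrays.

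Of the 114 genes, 32 had more than 1 tested probe set. Among those called by the probe set used, every tested probe set had the same sign for 7 of 10 genes from primordial to middle, 1 of 1 from middle to last and 5 of 8 from primordial to last, and no gene had probe sets called in opposite directions within a comparison. Near relatives such as ARF1 and ARF4 or SEC23A and SEC23B share sequence, and to what extent their probe sets read each other was not tested.

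Genes of the same routes that the naming rule leaves out were read in the same fit. Their calls, here and in the next paragraph, were not followed through the alternatives, so whether they hold there is not known. Of 50 secretory ones tested, 8 were higher and 12 lower in middle than in primordial follicles, against 22.9% and 22.5% of all genes. From middle to last 5 were higher and 1 lower, against 8.8% and 7.23%, and from primordial to last 11 and 4, against 17.2% and 15.8%. The medians were -0.07, 0.21 and 0.12. SAR1B, the GTPase that starts the COPII coat, was lower and then higher, at -1.005 and 0.82. SURF4, a cargo receptor of the ER, had -1.58 and 0.67, and YKT6, a SNARE of the Golgi, had -1.59. The receptors KDELR1, KDELR2 and KDELR3, which return ER proteins, had 0.52, 0.85 and 1.32 from middle to last, with KDELR2 and KDELR3 called. GOLGA2, a matrix protein of the Golgi, rose from 241 and 363 to 1103 and 928 and 1870.5 and 1198.

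Among 34 endosomal and endocytic genes outside the rule, 2 (5.88%) were higher and 13 (38.2%) lower from primordial to middle, against 22.9% and 22.5% of all genes. From middle to last 1 (2.94%) was higher and 1 lower, against 8.8% and 7.23%, and from primordial to last 1 (2.94%) and 10 (29.4%), against 17.2% and 15.8%. The medians were -0.42, 0.02 and -0.29. The endosomal members of the families had medians of 0.02, -0.06 and 0.05. The genes outside the rule thus had lower medians in both comparisons with the primordial stage and a higher one from middle to last. EEA1, a tether of early endosomes, had -1.18, the lysosomal membrane protein LAMP1 had -0.87, and PDCD6IP, a partner of the ESCRT complexes, had -1.12, all called lower in middle follicles. The subunits AP2M1 and AP2S1 of the clathrin adaptor at the plasma membrane were lower, at -0.58 and -0.91. AP3B1, of an adaptor for lysosome-related organelles, and CHMP5, of ESCRT-III, were the genes called higher, at 1.44 and 0.81. Of 4 regulators of the RAB cycle tested, GDI2, which keeps RABs soluble, and RABGAP1, which switches them off, were lower from primordial to middle, at -0.64 and -1.21. RABAC1, which helps RABs onto membranes, was higher at the last stage, at 0.67 over the middle and 0.63 over the primordial one.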

How the data were processed

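RNA of 6 samples of pig ovarian follicles was read on 1 single-channel array each, 2 for each of the 3 stages given by the titles. Per the submitters' processing notes, the authors made the deposited intensity values with the Affymetrix software GCOS, whose version and settings are not named in the labels or the file. The authors' scaling shows in the values: the mean intensity without the lowest and highest 2% was 499.8 to 499.9 on every array. The deposited table gives no detection calls, so depth is known only as signal, and 12.8% to 18.0% of probe sets per array were at 16 units or less.

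Values were taken as log2(signal + 16) without further normalization, which understates the change of dim genes. After 124 control probe sets and the dimmest 40% (mean signal under 91.3) were left out, 14399 probe sets were fitted over all 6 arrays with limma 3.58.1 in R 4.3.3 (lmFit, eBayes with an intensity trend, no replicate block; 3 residual and 6.33 prior degrees of freedom). Tests were two-sided, with Benjamini-Hochberg adjustment over those probe sets. Tables were read with pandas 2.3.3 and numpy 2.4.6 under Python 3.11.15, and figures were drawn with matplotlib 3.10.9. The fit was also run on simulated data with independent noise and changes in a small share of probe sets. These data differ from that setting, so the simulation does not show how far the calls given here can be relied on.

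Genes are named from the platform annotation. Of the 172 probe sets of the families, 170 matched a RefSeq gene identifier, with 0 symbols changed, and 5 probe sets that carry several symbols (of STX12 and STX7, or RAB6A) were left out. The members, classes, gene lists outside the rule (secretory, endosomal and endocytic, RAB cycle) and marker lists (oocyte, granulosa, theca, leukocyte, stromal fibroblast, smooth muscle, endothelium, epithelium) were chosen with earlier results of these data known. Genes were singled out by a rule: in each pairwise comparison the 8 largest differences in each direction among called genes whose replicates did not overlap, the 2 smallest F-test p of each subgroup, genes with probe sets called in opposite directions, and 12 well-known members, of which 8 had a probe set under the naming rule. Other members are named to complete their complexes and were chosen after their values were seen.

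Of the remaining marker lists, summed signals at the primordial, middle and last stage were 6021 to 6390, 3390 to 4699 and 19790 to 22870 for theca (6 genes of 6), 3503 to 4300, 6660 to 7387 and 27160 to 27600 for smooth muscle (5 of 6), 1346 to 1440, 719.0 to 841.7 and 2155 to 2833 for endothelium (5 of 6), and 350.5 to 467.5, 1347 to 1381 and 197.2 to 236.5 for epithelium (4 of 4). From primordial to middle 3 of the 6 theca genes were called higher and 1 lower. The lower one was CYP11A1, which went from 4673 and 4311 to 256 and 1090. Of 4 endothelial genes tested PECAM1 alone was called lower there, from 968.7 and 893.5 to 195.8 and 258.3. Of 5 smooth muscle genes 3 were called higher from primordial to middle. ACTG2 was called lower, from 196.3 and 354.1 to 63.6 and 101.0.

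Alternatives were pseudocounts of 1 and 64, no filter or a 60% filter, quantile normalization, arrays centred on their medians, no intensity trend, the replicate number as a block, the mean of a gene's probe sets, only the 4 arrays compared, each array left out in turn, and 2 other assignments of genes to classes.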

Additional observations from a re-analysis of the deposited data

How the results depend on the processing

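No call of the 37 genes chosen by rule changed direction: of their 59 calls, 29 held under all alternatives run (RAB27B, RAB3A, RAB8A, SNX21 and SNX30 are too dim for the 60% filter) and 30 were lost under at least one, as given beside each gene. Over all members 31 of 76 calls held under all of them. With 2 arrays per stage, leaving one out also takes residual degrees of freedom, and the lone array is assumed to vary like the other stages. Counts of members called ran from 24 to 43 with single arrays left out from primordial to middle (40 with all), 2 to 9 from middle to last (10), 14 to 24 from primordial to last (26) and 24 to 42 by the F-test (45). Without the intensity trend 6 were called from middle to last. Dim genes near the pseudocount, such as SNX21 and RAB3A, limit what their folds can show.

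With arrays centred on their median, the secretory medians were -0.55, 0.40 and -0.24 for middle minus primordial, last minus middle and last minus primordial, and the endosomal medians were -0.39, 0.13 and -0.18; the centring itself moves the median of all genes. With quantile normalization the endosomal median of middle minus primordial was -0.12, and without the sorting nexins that of last minus primordial was -0.059. With single arrays left out, the secretory median of last minus primordial ran from -0.041 to 0.084 and the endosomal one of middle minus primordial from -0.16 to 0.14.

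Of 52 values of those genes that were not called, 15 changed sign under an alternative, and the cause was not tested. With centred arrays the middle minus primordial values were -0.030 for COPB1, -0.0095 for COPZ2 and -0.15 for STX18, the last minus middle values 0.15 for RAB22A, 0.13 for SNX10, 0.036 for SNX14 and 0.079 for VPS45, and last minus primordial -0.020 for VPS13D. With quantile normalization STX18 had -0.057 for middle minus primordial, RAB22A 0.043, SEC31A -0.022 and SNX10 0.14 for last minus middle, and SEC61B 0.075 and VPS13D -0.0061 for last minus primordial. With the mean of a gene's probe sets RAB11A had 0.12 for last minus primordial, and RAB9A -0.13 and SEC31A -0.12 for last minus middle. With single arrays left out, last minus middle ran from -0.36 to 0.29 for RAB22A, -0.26 to 0.27 for RAB9A, -0.11 to 0.24 for SEC23B, -0.79 to 0.68 for SNX10 and -0.032 to 0.54 for SNX21, and last minus primordial from -0.36 to 0.13 for RAB27B, -0.080 to 0.070 for SEC61B and -0.081 to 0.49 for VPS13D.

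Same-numbered arrays of different stages did not deviate together, with correlations of their deviations of 0.06, 0.03 and -0.05. With 2 arrays a stage, these correlations cannot tell whether same-numbered arrays share an animal or a batch. With the replicate block 40 members were called from primordial to middle, 39 of them among those called without it, 10 from middle to last, 23 from primordial to last and 38 by the F-test, and of the calls of the genes chosen by rule 3 were lost (RAB3A for last minus primordial, SEC13 for middle minus primordial, SEC14L1 for last minus middle) and 2 gained (ARF4 for last minus middle, SNX22 for middle minus primordial). Of the other members, RAB28 (limma adjusted p = 0.0537) and SNX1 (limma adjusted p = 0.0638) lost their calls for last minus primordial with it.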
